A study of Mus musculus with 6 samples.

Results

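The growth hormone (GH) and insulin-like growth factor (IGF) axis was followed in mouse liver through 10 of its genes: Ghr, Socs2, Igf1, Igfals and the IGF binding protein genes Igfbp1, Igfbp2, Igfbp3, Igfbp4, Igfbp5 and Igfbp7. They were taken by name, and all 23 probe sets annotated to exactly 1 of these 10 genes were used, out of 22626 probe sets other than array controls, which cover 12393 genes. RNA came from livers of mice at postnatal day 9, with 3 wild-type and 3 transgenic arrays, labelled as biological replicates. The transgenic mice came from a cross of a line with a conditional Tcfeb overexpression allele to the Alb-Cre line, whose Cre recombinase is driven by the albumin promoter and therefore acts in hepatocytes. Tcfeb is the older name of Tfeb, which encodes the transcription factor TFEB. Whether the wild-type animals carried Cre or the conditional allele alone, and the strain, litter and sex of the animals, is not given in the sources used here.

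Pituitary GH binds its receptor on hepatocytes, and the kinase JAK2 and the transcription factors STAT5A and STAT5B carry the signal to the nucleus. Liver is the main source of circulating IGF1, most of which travels in a complex with IGFBP3 and the acid-labile subunit encoded by Igfals. The GH response of the liver matures after birth, when Igf1 and Igfals come to depend on GH. IGF binding proteins hold IGFs in the circulation and can either limit or prolong their action, and SOCS2, itself induced by GH, dampens signalling by the GH receptor.

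Transcripts of the GH receptor, of the GH-induced genes Igf1, Igfals and Socs2, and of Igfbp2, Igfbp3 and Igfbp4 were lower in transgenic liver. Socs2 and Igfals stood at less than 50% of their wild-type level, at 42.6% and 42.8% by the brightest probe set of each. Of the 23 probe sets, 18 were lower and 2 higher at an adjusted p under 0.05 and 3 did not pass (limma's moderated test over all probe sets, Benjamini-Hochberg adjustment), whereas 17.3% of all probe sets were called lower and 18.1% higher. With each gene read from its brightest probe set (the highest mean over the 6 arrays), 7 of the 10 genes were lower, 1 was higher and 2 did not pass, against 19.5% and 19.1% of all genes. The median difference, transgenic minus wild-type, was -0.56 on the log2 scale over the 23 probe sets and -0.04 over all probe sets. Wild-type and transgenic values stood apart, with no overlap, for 20 of the 23 probe sets and for 50.5% of all probe sets.

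Values are log2 expression as deposited, and errors of differences are standard errors (SE) of the limma fit, with n = 3 arrays per group throughout. Probe sets differ in how strongly they bind, so a level is compared only with the level of the same probe set on other arrays. The only Tfeb probe set read 6.71 ± 0.18 (SD) in wild-type and 6.50 ± 0.13 in transgenic liver (adjusted p = 0.178). The construct is not described in the sources used here, so this probe set does not check the labels. Transgenic replicate 1 showed a male pattern of sex-linked transcripts (Eif2s3y at 9.32, against 3.06 to 3.43 on the other 5 arrays), and without it the same 20 probe sets of the axis were called in the same directions. All 14 probe sets for bacterial hybridisation control RNAs were lower on every transgenic array, by a median of 0.37 on the log2 scale. Scaling the arrays to these controls raised the median difference of all probe sets from -0.04 to 0.33. On that scale 6 probe sets of the axis were lower and 4 higher, and 93.2% of all calls were higher. Directions are therefore given relative to the scale as deposited.

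**Figure D1:**
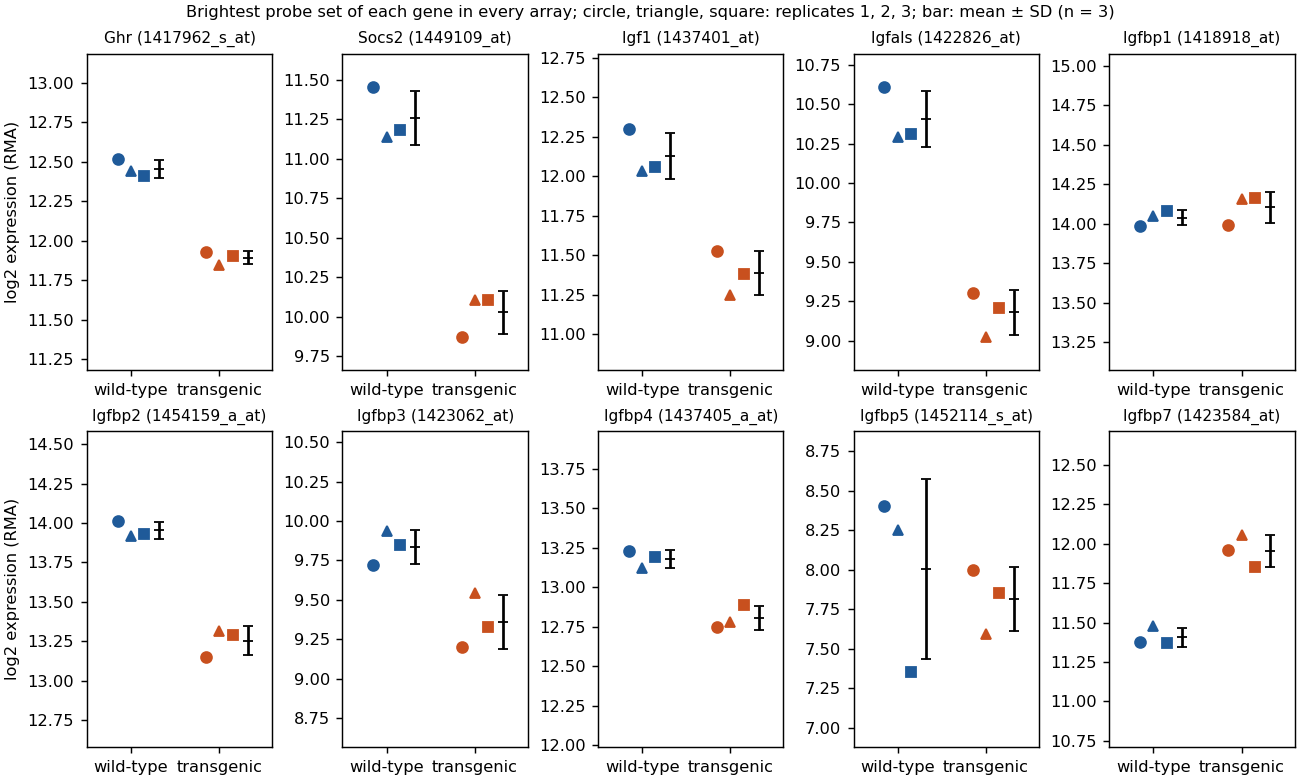
Log2 expression of the brightest probe set of each of the 10 genes on every array, with wild-type arrays in blue, transgenic arrays in orange, and the mean ± SD of 3 arrays as a black bar; every panel spans the same range on the log2 axis. The groups stand apart for 8 genes, with transgenic lower for 7 and higher for Igfbp7, and overlap for Igfbp1 and Igfbp5.

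Sequence upstream of the transcription starts is shown for 3 genes whose windows held a motif searched: Igfbp2 for the E-box core bound by TFEB, Igfals for the element bound by STAT5, and Igfbp1 for an element known from insulin response sequences. RefSeq windows on GRCm38.p6, 250 bases before to 50 after each start, were found for 9 of the 10 genes (13 windows, as some genes have several starts). Socs2 had none. In all, 6 motifs were searched on both strands. In the sequences, capitals mark the motif.

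Igfbp2, plus strand, chr1:72824298-72824383, CACGTG beginning 142 bases before the more upstream of 2 starts: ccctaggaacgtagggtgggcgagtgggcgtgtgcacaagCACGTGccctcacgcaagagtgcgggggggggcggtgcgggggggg
Igfals, plus strand, chr17:24877594-24877656, TTCNNNGAA beginning 236 bases before the most upstream of 3 starts: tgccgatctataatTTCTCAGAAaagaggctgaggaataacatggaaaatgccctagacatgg
Igfals, plus strand, chr17:24878163-24878191, TTCNNNGAA beginning 58 bases before another start: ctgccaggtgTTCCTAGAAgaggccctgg
Igfbp1, plus strand, chr11:7197639-7197725, CAAAACA beginning 108 bases before the start: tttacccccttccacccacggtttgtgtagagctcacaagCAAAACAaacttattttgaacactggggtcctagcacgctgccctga

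CACGTG, a palindrome, stood in 1 of the 13 windows and in 7.15% of all 32851 windows, and its longer form TCACGTGA, which contains it, in 0 of 13 and in 0.974%. TTCNNNGAA, also a palindrome, stood in 2 of 13 windows, both of Igfals, and in 8.3% of all windows. GTAAACA, a forkhead element, was found in 1 window of Igfals on the minus strand (3.65% of all windows), CAAAACA in the window of Igfbp1 (6.28%) and TGATGCAA in 0 of 13 (0.895%). A match describes these letters in these windows and does not show binding, which was not tested.

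Ghr, which encodes the GH receptor, fell on all 3 of its probe sets. The brightest, 1417962_s_at, gave 12.52, 12.44 and 12.41 for wild type, against 11.93, 11.84 and 11.91 for transgenic. The groups did not overlap, and each was tight (SD 0.06 and 0.04). The difference was -0.56 (SE 0.07, adjusted p = 0.000626), a fall to 67.7% of wild type. Probe set 1451501_a_at fell by 0.81 (SE 0.07) and 1451871_a_at by 0.64 (SE 0.09), so the 3 estimates for Ghr spanned 56.9% to 67.7% of wild type. On the scale of the bacterial controls 1451501_a_at was still called lower (-0.44), while 1417962_s_at (-0.19, adjusted p = 0.131) and 1451871_a_at (-0.27, adjusted p = 0.0637) were not.

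Socs2 had the lowest adjusted p of the 10 genes. Probe set 1449109_at read 11.45, 11.14 and 11.18 in wild-type and 9.87, 10.10 and 10.11 in transgenic liver. Transgenic replicate 1 was the lowest array, and the highest transgenic array lay more than 1 log2 unit below the lowest wild-type array. The mean went from 11.26 ± 0.17 to 10.03 ± 0.14, a difference of -1.23 (95% interval -1.48 to -0.98, adjusted p = 0.000123). The other probe set, 1418507_s_at, fell from 10.33 ± 0.17 to 9.17 ± 0.07 (difference -1.16, adjusted p = 8.87e-05), and only 1.6% of all probe sets on the array had a lower difference.

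Igf1, the ligand, fell on its 3 probe sets by 0.56, 0.59 and 0.75, to between 59.6% and 68.0% of wild type. The brightest, 1437401_at, read 12.30, 12.03 and 12.06 in wild-type liver and 11.53, 11.25 and 11.38 in transgenic liver. Wild-type replicate 1 was the highest array and transgenic replicate 2 the lowest, and the groups did not overlap. The difference was -0.75 (SE 0.10, adjusted p = 0.00117). Adjusted p was 0.00293 for 1419519_at and 0.00247 for 1452014_a_at. On the scale of the bacterial controls 1437401_at was still called lower (-0.37, adjusted p = 0.0257), and the other two were not (adjusted p = 0.193 and 0.151). Igfals, Igfbp2 and both probe sets of Socs2 kept their calls on that scale.

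Igfals encodes the acid-labile subunit, the part of the circulating complex made by hepatocytes under GH. Its only probe set, 1422826_at, read 10.61, 10.29 and 10.31 in wild-type liver. The transgenic arrays read 9.31, 9.03 and 9.21, all below every wild-type array. The difference was -1.22 (95% interval -1.48 to -0.96, adjusted p = 0.000142), and 1.49% of all probe sets had a lower one. Wild-type replicate 1 was the highest wild-type array on all 6 probe sets of Igf1, Igfals and Socs2, as on 14 of the 18 probe sets of the axis called lower. Transgenic replicate 1 was the lowest transgenic array on 11 of the 18 and transgenic replicate 2 on 7. Without wild-type replicate 1 each of the 18 was still called lower.

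**Figure D2:**
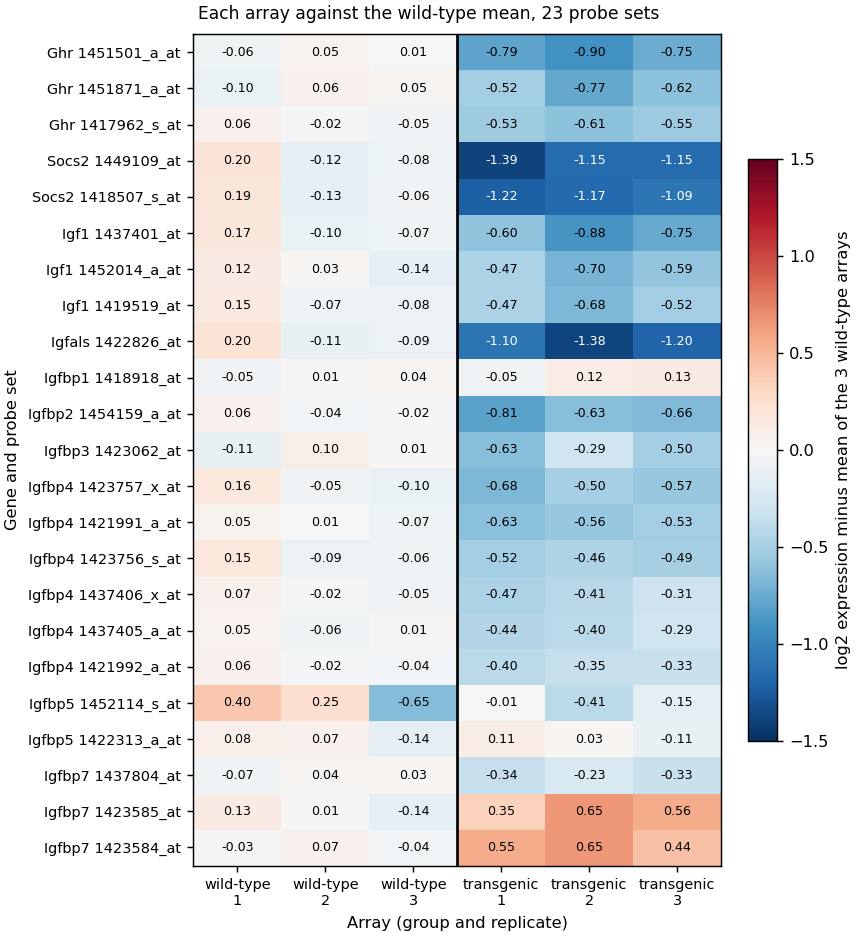
Log2 expression of all 23 probe sets (rows) on every array (columns) minus the mean of the 3 wild-type arrays for that probe set; blue is below and red above that mean. The 3 transgenic columns are blue for Ghr, Socs2, Igf1, Igfals, Igfbp2, Igfbp3 and Igfbp4, and wild-type replicate 3 stands apart on Igfbp5 1452114_s_at at -0.65.

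Igfbp3, which encodes the binding protein of the circulating ternary complex, is made in liver mainly by non-parenchymal cells. Its probe set 1423062_at read 9.72, 9.94 and 9.85 in wild-type and 9.20, 9.54 and 9.33 in transgenic liver. The groups did not overlap, and transgenic replicate 2 came nearest to the wild-type arrays. The difference was -0.48 (SE 0.10, adjusted p = 0.00936), or 71.8% of wild type. On the scale of the bacterial controls it was -0.11 (adjusted p = 0.419). Among 12 marker genes of sinusoidal endothelial cells 5 were lower, 1 was higher and 6 did not pass, with a median difference of -0.20. The mean level of those markers was 8.66 to 8.87 on the wild-type and 8.63 to 8.71 on the transgenic arrays, and none is at 0, since these log2 values have no zero. Cdh5 fell by 0.38 and Lyve1 rose by 0.40, a call kept in 2 of the 6 fits with 1 array left out (those lacking wild-type replicate 2 or transgenic replicate 3). A second, dimmer probe set of each did not pass, at -0.03 for Cdh5 (adjusted p = 0.873) and 0.18 for Lyve1 (adjusted p = 0.236). Of 8 Kupffer cell markers 4 were lower and 0 higher (median -0.40, mean level 10.43 to 10.81 and 9.94 to 10.42), including Cd163 at -1.24 and Adgre1 at -0.56. The groups overlapped for Adgre1, and its call was lost without wild-type replicate 2 or 3 or transgenic replicate 1 or 2 (adjusted p = 0.0889 to 0.108). That of Cd163 was lost without wild-type replicate 2 or 3 (adjusted p = 0.0566 and 0.051). The count of Kupffer markers called lower was 1 without wild-type replicate 2 or wild-type replicate 3 and 2 without transgenic replicate 2, and that of endothelial markers was 3 without transgenic replicate 2. Scaled to the bacterial controls, 0 endothelial markers were lower and 5 higher, with Cdh5 at -0.007 (adjusted p = 0.959), and 1 Kupffer marker was lower, Cd163, and 1 higher. The part of these cells in the Igfbp3 result was not tested. In whole tissue, fewer cells of a type and less RNA per cell cannot be told apart.

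Igfbp2, a binding protein abundant in fetal and neonatal liver, was among the brightest probe sets of the axis. Probe set 1454159_a_at read 14.01, 13.92 and 13.93 in wild-type and 13.15, 13.32 and 13.29 in transgenic liver. Both groups were tight, with transgenic replicate 1 the lowest. The difference was -0.70 (SE 0.08, adjusted p = 0.000343), a fall to 61.6% of wild type. The highest value of any probe set on wild-type replicate 1 was 14.84, so the wild-type level lay near the top of the scale.

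Igfbp4, which encodes a binding protein that inhibits IGF action until it is cleaved by the protease PAPP-A, had 6 probe sets and fell on all of them as deposited, by 0.36 to 0.58. The brightest, 1437405_a_at, read 13.23, 13.12 and 13.19 in wild-type and 12.75, 12.78 and 12.89 in transgenic liver. The groups did not overlap on any of the 6. The difference on 1437405_a_at was -0.38 (SE 0.07, adjusted p = 0.00583), and the largest was -0.58 (SE 0.09, adjusted p = 0.0022) on 1423757_x_at. The falls of Igfbp4 depend on the scale: with arrays scaled to the bacterial controls the 6 differences were -0.21 to 0.01, with the sign turned on 1421992_a_at, and none passed the threshold. Probe sets of 1 gene share the animals and are not replicates.

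Igfbp1, an acutely regulated binding protein that fasting induces and insulin represses, did not pass the threshold. Probe set 1418918_at read 13.98, 14.05 and 14.08 in wild-type and 13.99, 14.15 and 14.16 in transgenic liver. Transgenic replicate 1 lay at the level of the lowest wild-type array, and the other two lay above all wild-type arrays. The difference was 0.06 (95% interval -0.11 to 0.24, adjusted p = 0.541), so a fall of the size seen for Igfbp2 lies outside the interval as deposited. Like Igfbp2 it read close to the highest value on the array. With arrays scaled to the bacterial controls it was 0.44 higher (adjusted p = 0.00213). Igfbp1 and Igfbp3 are neighbours on chromosome 11, with no coding gene between them in RefSeq on GRCm38.p6, and so are Igfbp2 and Igfbp5 on chromosome 1. In each pair 1 gene was called lower and the other did not pass.

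Igfbp5, a binding protein mostly made by mesenchymal cells, gave no call. Probe set 1452114_s_at read 8.41, 8.25 and 7.35 in wild-type liver and 7.996, 7.59 and 7.86 in transgenic liver. Wild-type replicate 3 was the lowest of all 6 arrays, and the groups overlapped. The difference was -0.19 (95% interval -0.78 to 0.40, adjusted p = 0.596). Without wild-type replicate 3 it was -0.51 and passed (adjusted p = 0.0256), and without wild-type replicate 1 it was 0.02, so 1 array decides this value. The other probe set, 1422313_a_at, was dim at 5.56 ± 0.12 and 5.57 ± 0.11 (adjusted p = 0.928). Of 10 markers of stellate cells and fibroblasts 1 was higher and 3 lower, with a median difference of 0.01 and a mean level of 9.33 to 9.40 on the wild-type and 9.21 to 9.37 on the transgenic arrays. Reln fell by 1.06 and Acta2 rose by 0.96, but the 2 probe sets of Acta2 were called in opposite directions: the dimmer one, 1456658_at, fell by 0.35 (adjusted p = 0.0371). Scaled to the bacterial controls, 2 markers of this list were lower and 6 higher. The part of these cells in the Igfbp5 and Igfbp7 values was not tested.

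Igfbp7, a secreted protein with low affinity for IGFs that endothelial and mesenchymal cells make, was the only one of the 10 genes with a probe set called higher. Probe set 1423584_at read 11.38, 11.48 and 11.37 in wild-type and 11.96, 12.05 and 11.85 in transgenic liver. All 3 transgenic arrays lay above all wild-type arrays. The difference was 0.55 (SE 0.08, adjusted p = 0.0014), or 146.1% of wild type, and 1423585_at, a dimmer probe set, rose by 0.52 (adjusted p = 0.00659). The third probe set, 1437804_at, went the other way, from 7.28 ± 0.06 to 6.97 ± 0.06 (difference -0.30, adjusted p = 0.0132), with no overlap. On the scale of the bacterial controls its sign turned (0.07, adjusted p = 0.56), while the 2 probe sets that rose kept their calls. The direction for Igfbp7 thus differs between its probe sets as deposited.

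**Figure D3:**
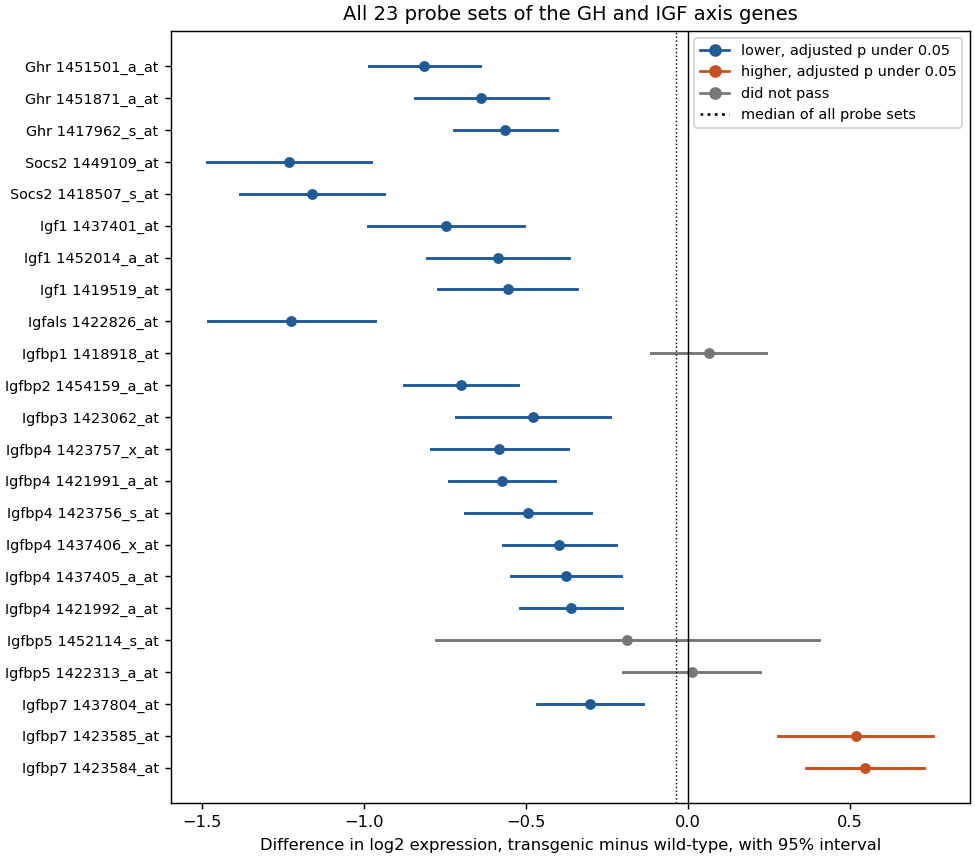
Difference in log2 expression, transgenic minus wild-type, of all 23 probe sets with 95% intervals from the limma fit; blue is called lower, orange called higher and grey not passed, and the dotted line is the median of all probe sets at -0.04. Socs2 and Igfals lie lowest, between -1.23 and -1.16, and the probe sets of Igfbp7 lie on both sides of 0.

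The rest of the pathway was read from 6 lists of related genes, each gene by its brightest probe set. Of 15 measured genes of GH receptor signalling 3 were higher, 3 lower and 9 did not pass, with a median of 0.06 against -0.04 over all genes. Both STAT5 genes fell: Stat5a from 7.60 ± 0.09 to 6.96 ± 0.13 (difference -0.65, adjusted p = 0.00107) and Stat5b from 9.11 ± 0.02 to 8.62 ± 0.11 (-0.49, adjusted p = 0.00224). A second, dimmer probe set of each did not pass, at -0.05 for Stat5a and -0.07 for Stat5b. The brightest probe set of Stat5a kept its call on the scale of the bacterial controls (-0.28, adjusted p = 0.0294). That of Stat5b lost it (-0.12, adjusted p = 0.301). Jak2, the receptor's kinase, was higher by 0.26 (SE 0.07, adjusted p = 0.0195) and on its other probe set by 0.29. The call of the brightest probe set of Jak2 was lost without transgenic replicate 1 (adjusted p = 0.0501) or transgenic replicate 3 (adjusted p = 0.065), after quantile normalization again (0.0686) and with cyclic loess (0.0867).

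Cish and Socs3, other suppressors of this pathway, were not called lower. Cish, like Socs2 a STAT5-induced feedback inhibitor, read 8.94, 8.47 and 8.58 in wild-type and 8.73, 8.88 and 8.88 in transgenic liver. The groups overlapped, and the difference was 0.17 (95% interval -0.12 to 0.45, adjusted p = 0.325), which leaves out a fall of the size seen for Socs2. Socs3, induced by inflammatory cytokines, was higher by 0.66 (adjusted p = 0.0265), a call lost without wild-type replicate 1 or 2 or transgenic replicate 1 or 3 (adjusted p = 0.0673 to 0.0836). Leprot, whose product lowers GH receptor at the cell surface, was higher by 0.38 (adjusted p = 0.00499), and Sirpa was lower by 0.51 (adjusted p = 0.00957). Sirpa lost its call on the scale of the bacterial controls (-0.14, adjusted p = 0.28). Without transgenic replicate 1 or transgenic replicate 3 only 1 gene of this list was called higher, and on the scale of the bacterial controls 10 were higher and 1 lower.

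Of 17 genes of IGF and insulin receptor signalling 2 were higher, 5 lower and 10 did not pass (median -0.19). Igf2r, whose product takes IGF2 and lysosomal enzymes to lysosomes, rose on both probe sets. On 1424112_at it read 8.96, 9.49 and 9.33 in wild-type and 10.31, 10.21 and 10.22 in transgenic liver. No transgenic array lay as low as any wild-type array, and the rise was 0.99 (SE 0.13, adjusted p = 0.000884). Igf2, the fetal ligand, was lower by 0.27 (14.03 ± 0.03 to 13.76 ± 0.07, adjusted p = 0.0204) and by 0.49 on its dimmer probe set. The first of these calls was lost when wild-type replicate 2, or transgenic replicate 1 or 3, was left out (adjusted p = 0.0529 to 0.069) and after quantile normalization again (0.0551), and on the scale of the bacterial controls that difference was 0.10.

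Igf1r, the receptor of IGF1, was dim at 5.27 ± 0.03 and 5.03 ± 0.16 (difference -0.25, adjusted p = 0.0737). Irs1, an adaptor of both receptors, fell from 10.08 ± 0.28 to 9.14 ± 0.19 (difference -0.93, adjusted p = 0.00248). Pik3r1, a regulatory subunit of PI3 kinase, was lower by 0.70 (adjusted p = 0.0266), a call lost without wild-type replicate 2 or 3 or transgenic replicate 2 (adjusted p = 0.0683 to 0.081) and on the scale of the bacterial controls (0.131). Akt1 was higher by 0.29 (adjusted p = 0.0197), lost without wild-type replicate 2 or transgenic replicate 1 or 2 (adjusted p = 0.0534 to 0.0713), after quantile normalization again (0.0644) and with cyclic loess (0.0733). Without wild-type replicate 2 there were 3 lower and 1 higher in this list, without transgenic replicate 1 or 2 there was 1 higher, and on the scale of the bacterial controls 1 was lower and 7 were higher.

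Of 9 genes known to respond to GH in liver 6 were lower, 0 higher and 3 did not pass, with a median of -0.44. The list does not separate genes that GH raises from genes that it lowers, so its counts give no direction of GH action. Hsd3b5, a steroid dehydrogenase typical of adult male liver, fell at a dim level from 6.11 ± 0.17 to 4.14 ± 0.14 (difference -1.97, adjusted p = 1.58e-05). Onecut1, a liver transcription factor, fell by 1.26 (SE 0.15, adjusted p = 0.000543). Egfr, the EGF receptor gene, fell by 1.25 (SE 0.12, adjusted p = 0.000201), and Cyp2d9, a cytochrome P450, by 0.61 (adjusted p = 0.00109). Probes for the Hsd3b and Cyp2d families can bind close relatives. On the scale of the bacterial controls 3 genes of this list were lower and 2 higher.

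Among 7 measured IGFBP relatives, proteases and protease inhibitors 1 was higher and 3 lower (median -0.24). Pappa, which encodes the protease PAPP-A, was higher by 0.52 at a dim level (4.78 ± 0.14 to 5.30 ± 0.09, adjusted p = 0.00383). Stc1 and Stc2, which encode stanniocalcins that inhibit PAPP-A, were lower by 0.60 (adjusted p = 0.0207) and 0.24 (adjusted p = 0.0404), and the protease gene Htra1 by 0.31 (adjusted p = 0.0186). The 3 lower calls are weak: none was kept when wild-type replicate 2 was left out, nor when transgenic replicate 2 or 3 was, and on the scale of the bacterial controls 0 were lower and 2 higher. Of 2 measured IGF2 mRNA binding protein genes, Igf2bp1, a fetal gene, was higher by 0.71 at a dim level (4.05 ± 0.08 to 4.76 ± 0.22, adjusted p = 0.00239) and Igf2bp3 did not pass. The other probe set of Igf2bp1, also dim, did not pass (0.26, adjusted p = 0.291).

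Of 7 measured liver transcription factors that act on the Igf1 or Igfbp1 promoters 3 were lower, 1 higher and 3 did not pass (median -0.34). Cebpa fell by 0.80 (SE 0.10, adjusted p = 0.000797) and Foxa3 by 0.62 (adjusted p = 0.00239). Hnf4a was lower by 0.33 (adjusted p = 0.0148), and its sign turned on the scale of the bacterial controls (0.04). Foxa1 rose from 7.23 ± 0.36 to 8.17 ± 0.14 (difference 0.93, adjusted p = 0.00435). On that other scale 1 gene of this list was lower and 2 were higher.

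**Figure D4:**
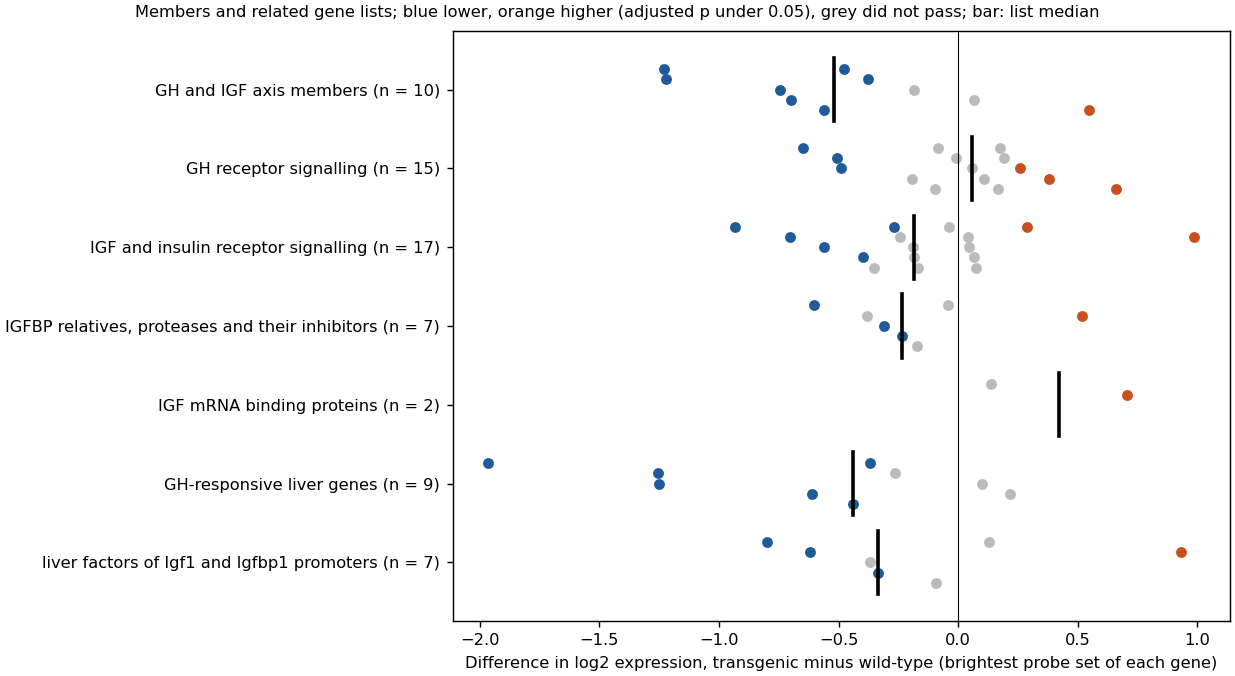
Difference in log2 expression, transgenic minus wild-type, of each measured gene by its brightest probe set, for the 10 genes of the axis and 6 related lists; blue is lower and orange higher at an adjusted p under 0.05, grey did not pass, and the black bar is the list's median. The axis genes and the GH-responsive genes lie mostly below 0, with medians of -0.52 and -0.44, while GH receptor signalling lies on both sides at a median of 0.06.

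Ghr, Igf1, Igfals, Socs2 and Igfbp2 are expressed in liver largely by hepatocytes, so the markers of that cell type stand beside them. Of 10 measured hepatocyte markers 6 were lower, 0 higher and 4 did not pass, with a median of -0.38 and a mean level of 13.36 to 13.41 on the wild-type and 12.59 to 12.65 on the transgenic arrays. Alb, the defining transcript of liver, gave the highest value of any probe set on every array, with means of 14.87 in both groups. These show that it is abundant. A rise, or a fall that left it at the top of the scale, could not be read from this probe set. Of the others, Tdo2 was lower by 3.58 and Hpd by 1.09. Scaled to the bacterial controls, 4 hepatocyte markers were lower and 3 higher. Of 5 cholangiocyte markers 3 were higher (median 1.15, mean level 5.76 to 7.01 and 7.26 to 7.51), led by Sox9 at 2.22 and Epcam at 1.94. Krt19 (-0.27, adjusted p = 0.613) and Cftr (0.38, adjusted p = 0.573) did not pass, and the groups overlapped for both. Of 5 erythroid markers 4 were higher (median 0.79, mean level 7.30 to 7.43 and 7.85 to 7.99), led by Slc4a1 at 1.00 and Epb42 at 0.98. Alas2 did not pass (-0.28, adjusted p = 0.153), and Klf1 was higher by 0.35 (adjusted p = 0.0387). Of the fits with 1 array left out, only that lacking wild-type replicate 1 kept the call of Klf1. Epb42 was dim (4.22 ± 0.33 to 5.21 ± 0.12), and its other probe set did not pass (-0.02, adjusted p = 0.871). Of the other probe sets of Slc4a1, 1416464_at rose by 0.78 and the dim 1431743_a_at did not pass (-0.14, adjusted p = 0.196). Pancreatic acinar markers, which test for stray tissue, were dim, at a mean level of 5.62 to 5.79 and 5.23 to 5.33, with 2 of 4 lower, Cela2a at -0.90 and Prss2 at -0.32. Prss2 lost its call without wild-type replicate 3 or transgenic replicate 1, and on the scale of the bacterial controls, where its sign turned (0.054). The part of hepatocyte number, of other cells or of the wider fall of hepatocyte transcripts in the values of the axis was not tested.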

How the data were processed

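Total liver RNA was labelled as biotinylated cRNA and hybridised to Affymetrix arrays. The deposited values are log2 expression per probe set, which the authors made with affy and RMA, per the submitters' processing notes, which name no versions. The table holds 22690 probe sets, 64 of them array controls, with 0 missing values and no detection calls. Names came from the platform annotation, and all 23 probe sets of the axis matched the same symbol in RefSeq (GRCm38.p6) through Entrez identifiers.

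Groups follow the sample titles. Limma 3.58.1 in R 4.3.3 (lmFit, eBayes, no covariates) compared them over all 22626 other probe sets, with Benjamini-Hochberg adjustment and a threshold of 0.05. An exact permutation test of 3 against 3 cannot go below p = 0.1 and was not used. The script was tested on simulated data. The members and lists were chosen with earlier results of these data known, so their counts are descriptions. From each related list the text names up to 4 called genes with the largest change (2 per direction first), and from each cell type list up to 2. Igf2, Igf1r, Igf2r, Stat5a, Stat5b, Jak2 and Cish are named in any case. Igf2bp3, Alb, Krt19, Cftr, Alas2 and Klf1 were added after their values were seen. Python 3.11.15, pandas 2.3.3 and matplotlib 3.10.9 made tables and figures. Alternatives are named in the closing section. The number of arrays limits the precision.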

Additional observations from a re-analysis of the deposited data

How the results depend on the processing

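Under 17 alternatives, the 18 lower and 2 higher probe sets of the axis were called in the same direction wherever they were tested, except with arrays scaled to the bacterial controls. That scaling gave 6 lower and 4 higher (945 and 12963 over all probe sets, against 3919 and 4087), turned Igfbp4 1421992_a_at to 0.011, Igfbp7 1437804_at to 0.069 and Igfbp5 1452114_s_at to 0.19, and called Igfbp1 and Igfbp5 1422313_a_at higher. Its cause was not tested. One probe set per gene gave 7 lower and 1 higher of 10 genes (2523 and 2467 over all), and averaging the probe sets of each gene 7 and 1 (2524 and 2241), with fewer features tested by construction. Median centring moved the share of calls that were higher from 51.0% to 42.1% over all probe sets. Igfbp5 1422313_a_at turned to -0.029 with median centring and ranged from -0.059 to 0.071 with 1 array left out, and Igfbp5 1452114_s_at from -0.51 to 0.015. With the replicate number as a block (replicate block), 18 and 2 probe sets of the axis were called, and 3291 lower and 3466 higher over all; of the related genes named, Jak2 (adjusted p = 0.0513), Pik3r1 (0.0576) and Stc2 (0.0775) lost their calls. The labels do not say whether the numbers pair the animals. Deviations of arrays with the same number correlated at -0.10, -0.02 and 0.05, and 1 of 6 arrays correlated best with its own number. With so few arrays these values cannot settle whether animals were paired. Quantile normalization again, cyclic loess, array weights, eBayes with trend and robust options, and leaving out dim or possibly cross-hybridising probe sets changed no call of the axis. Signal over background is unknown, so dim readings such as those of Igf1r, Pappa, Hsd3b5, Igf2bp1 and Epb42 are uncertain.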
